A study of Mus musculus with 11 samples.

Results

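OKN-HAMS and OK+9MS are polycistronic reprogramming cassettes, single transcripts that encode Oct4 (Pou5f1), Klf4, c-Myc and Sox2 in that order. They differ at the Klf4 N-terminus, which carries an HA tag, a short viral epitope used for detection, in OKN-HAMS and 9 native Klf4 residues in OK+9MS. The 2 arrays were compared directly, and the levels of the same genes on the arrays OKMS (the same order with the short Klf4) and OSKM (another order, with the long Klf4) were set beside them, so that 4 of the 11 arrays of the series carry this account. Of the other cassettes in the series, STEMCCA, EB-C5 and WTSI carry the short Klf4 and MKOS the long Klf4. The meaning of the construct names is taken from knowledge of these vectors, since the labels give the names alone. The labels describe mouse embryonic fibroblasts (MEFs) of the genotype ROSA-rtTA; Nanog-GFP, an F1 hybrid, male, from 13.5 dpc embryos. One parent was ROSA-rtTA homozygous on C57Bl6 and the other Nanog-GFP homozygous, a BAC transgene on C57Bl6/129SV. The cells received a piggyBac transposon (PB-TAC) and the transposase plasmid pCyL43, and 1 ug/mL doxycycline in ES cell medium from 24 h on. The cassette arrays hold cells sorted for mCherry, which the transposon expresses with its cassette, on day 6. The lacZ control carries the same alleles and transposon backbone with lacZ, and was harvested unsorted on day 2, so that day, sorting and transgene cannot be told apart in any difference from it. No construct was measured on more than 1 array, so there is no replicate error and no test: all values are single readings on the log2 scale, and a difference of 1 is 2-fold.

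Klf4 is a zinc finger transcription factor that binds GC-rich promoter and enhancer elements. In skin and gut it is known for driving terminal differentiation of epithelial cells, and in reprogramming it turns on epithelial genes while fibroblasts lose their mesenchymal program. That mesenchymal-to-epithelial transition is an early step, ahead of the activation of the pluripotency network by Oct4 and Sox2. The zinc fingers lie at the C-terminus, so the tag and the 9 residues sit at the end away from the DNA-binding part.

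Of the factors themselves, Pou5f1, Myc and Sox2 read almost alike in the pair, and Klf4 read somewhat higher in OKN-HAMS. Pou5f1, the core pluripotency factor, read 13.12 in OKN-HAMS, 13.01 in OK+9MS, 13.22 in OKMS and 12.73 in OSKM, against 6.09 in lacZ. Myc, the growth-promoting factor, read 10.86, 10.91, 10.76 and 10.66 in that order, against 9.54 in lacZ. Klf4 read 10.19, 9.81, 9.94 and 10.00, against 9.47 in lacZ, a difference of 0.38 within the pair. Sox2 read between 6.57 and 6.63 on the 4 arrays and 6.79 in lacZ. Only the Pou5f1 and Myc signals separated these cassettes from lacZ by more than 1 on the log2 scale. Whether a probe set can detect a transgene as well as the gene of the cell was not analysed here.

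The fibroblast label held on both arrays. Of 27 measured fibroblast and matrix genes, 26 read 7 or more on at least 1 array of the pair, led by the intermediate filament Vim, with list means of 10.21 in OKN-HAMS, 10.73 in OK+9MS and 10.54 in lacZ. Markers of other cells averaged under 7 on both arrays, with some members above it. The 12 macrophage markers averaged 6.42 and 6.44, with only the lysosomal Cd68 at 7 or more, and 12 endothelial markers averaged 6.78 and 6.95, with 4 at 7 or more. The 12 skeletal muscle markers averaged 6.81 and 6.96, with 6 at 7 or more, led by the actin Acta1 at 8.43 and 9.06. Among the endothelial markers the receptor Tek read 9.70 and 9.57, against 6.24 in lacZ. These are bulk samples, in which fewer cells of a type and less RNA per cell cannot be told apart.

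The 2 arrays differed in few genes, and mostly by lower levels in OKN-HAMS. Of 19938 genes, 50 (0.251%) were higher in OKN-HAMS by 2-fold or more and 153 (0.767%) were lower, 203 (1.02%) in all. At 1.5-fold the counts were 360 (1.81%) higher and 747 (3.75%) lower. The SD of the difference over genes was 0.287, against 0.214 for OK+9MS minus OSKM, 0.312 for OKN-HAMS minus OSKM, 0.399 for OKN-HAMS minus OKMS and 0.418 for OK+9MS minus OKMS. OK+9MS and OSKM thus lay nearer to each other than either did to OKN-HAMS, and OKMS lay farthest from the other 3. The Klf4L and Klf4S arrays, which carry Klf4 alone, gave a scale for close arrays, with an SD of 0.126 and 0 genes at 2-fold. Against OKMS, OKN-HAMS had 386 genes (1.94%) higher and 174 (0.873%) lower at 2-fold, and OK+9MS 459 (2.3%) and 175 (0.878%). In each pair the first array is compared with the second, and pairs that share an array are not independent.

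**Figure D1:**
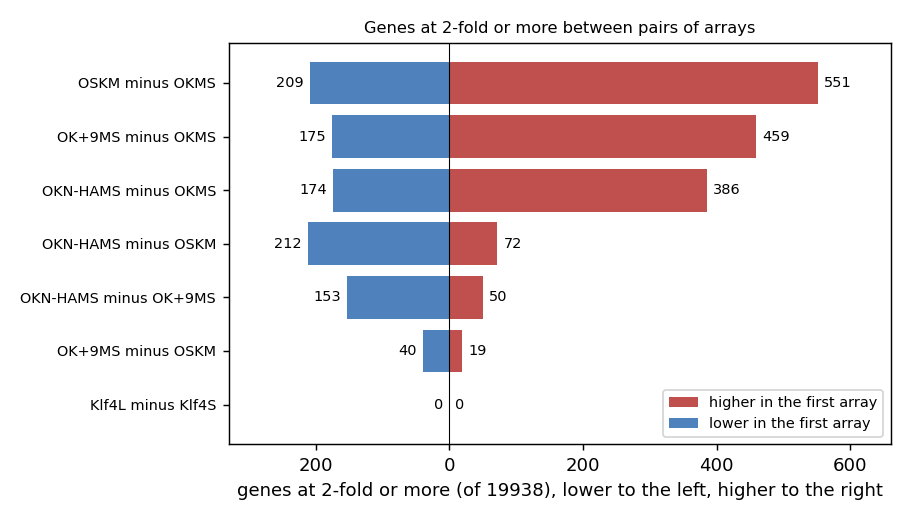
Genes at 2-fold or more between pairs of arrays, with genes higher in the first-named array to the right and lower ones to the left. OKN-HAMS minus OK+9MS has 50 higher and 153 lower genes, between the 19 and 40 of OK+9MS minus OSKM and the 386 and 174 of OKN-HAMS minus OKMS.

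**Figure D2:**
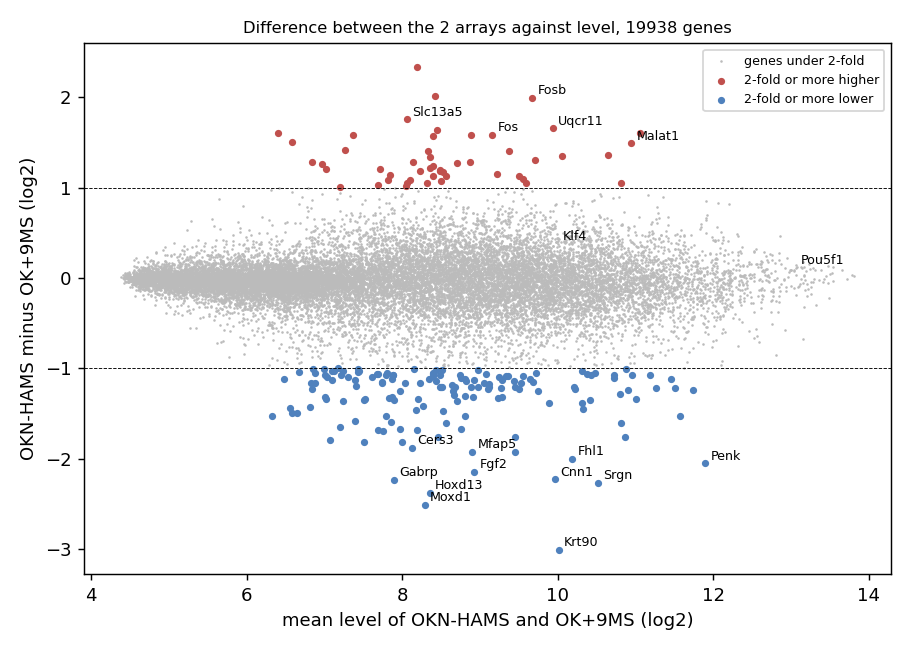
Difference OKN-HAMS minus OK+9MS (log2, vertical) against the mean level of the 2 arrays (log2, horizontal) for 19938 genes, with dashed lines at 2-fold. The lower genes reach -3.01 (Krt90), and the highest point, at 2.33, is a small RNA counted but not named.

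For many of the lower genes EB-C5 and WTSI, which lie outside the 4 arrays, also read low. In the 153 lower genes, EB-C5 read nearer to OKN-HAMS than to OK+9MS in 121 and WTSI in 100, against 75 for OKMS, 42 for STEMCCA, 33 for MKOS and 21 for OSKM. For OKMS that is 49.0% (48.9% of all genes) and for OSKM 13.7% (40.3% of all genes). The shares over all genes were not computed for EB-C5, WTSI, STEMCCA and MKOS singly, so those counts have no background. The counts of nearer genes include those in which an array read below OKN-HAMS, 64 for EB-C5, 47 for WTSI and 37 for OKMS. Some lay far below, such as Krt16, at 6.175 in EB-C5 and 6.19 in WTSI, against 10.19 in OKN-HAMS and 11.26 in OK+9MS. Nearer to OKN-HAMS therefore does not always mean a like level. Both EB-C5 and WTSI were nearer to OKN-HAMS in 86 of the 153 genes (56.2%), against 35.1% of all genes, and neither was in 18 (11.8%, against 32.3%). In the 50 higher genes both were nearer to OKN-HAMS in 21 (42%, against 35.1% of all genes) and neither in 20 (40%, against 32.3%), both shares near those of all genes. The labels give no extraction, culture or hybridisation batch for any array. EB-C5 and WTSI were set beside the pair after the data were seen, and the part of what these 3 arrays share in the result was not tested.

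**Figure D3:**
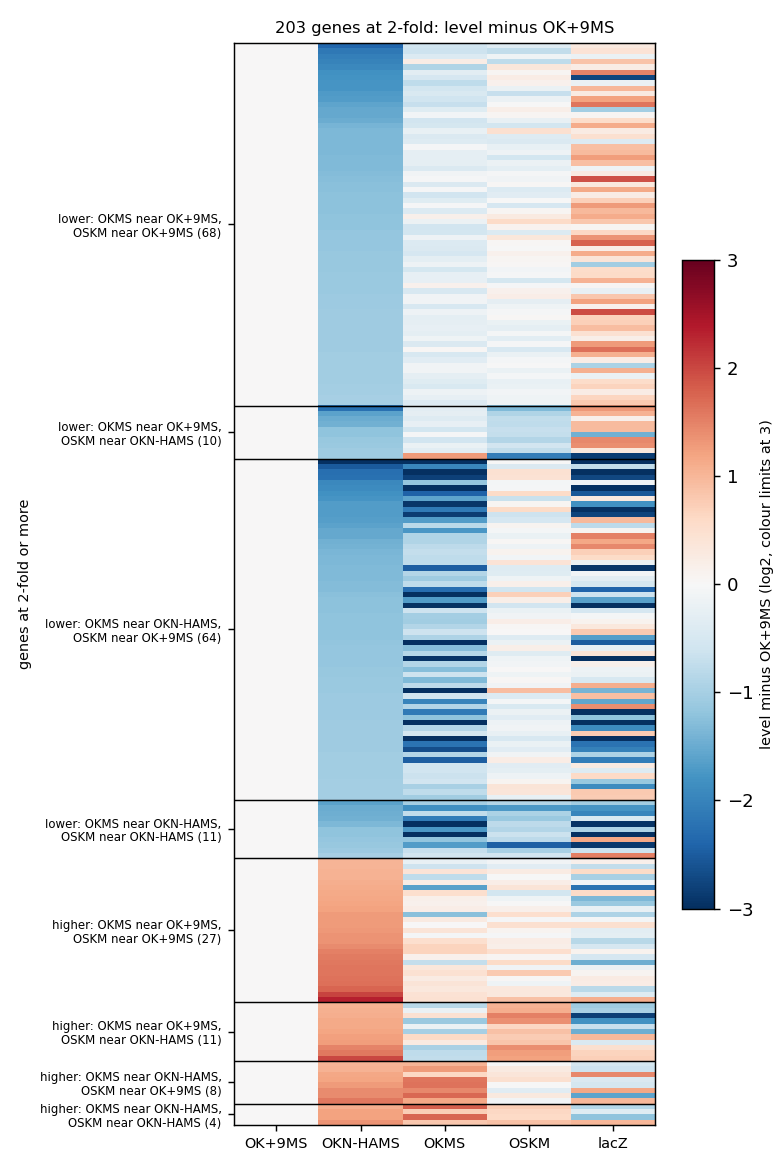
Levels of the 203 genes at 2-fold or more as log2 difference from OK+9MS (colour, limits at 3) on OK+9MS, OKN-HAMS, OKMS, OSKM and lacZ, grouped by the array of the pair to which OKMS and OSKM lay nearer. The largest blocks are 68 lower genes in which OKMS and OSKM both lay near OK+9MS and 64 in which OKMS lay near OKN-HAMS and OSKM near OK+9MS.

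In the lower genes OSKM mostly lay with OK+9MS, while OKMS was divided as over all genes. OSKM lay nearer to OK+9MS in 132 of the 153 genes (86.3%, against 59.7% of all genes), and OKMS in 78 (51.0%, against 51.1%). In 68 genes (44.4%, against 33.0% of all genes) both lay near OK+9MS, so that OKN-HAMS stood apart, with a median level of 7.86 against 9.18 in OK+9MS, 8.80 in OKMS, 9.14 in OSKM and 9.92 in lacZ. In 64 genes (41.8%, against 26.8%) OKMS lay near OKN-HAMS and OSKM near OK+9MS, with medians of 7.96 in OKN-HAMS, 9.26 in OK+9MS, 7.20 in OKMS, 9.19 in OSKM and 7.70 in lacZ. OKN-HAMS was the lowest of the 4 arrays in 115 of the 153 genes (75.2%, against 28.8% of all genes) and the lowest of all 8 cassettes in 81 (52.9%, against 14.9%). Its level in a gene of this set was chosen to be low, so these shares describe where the other arrays lie and test nothing.

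The 64 genes with OKMS near OKN-HAMS were mixed. OKMS read below OKN-HAMS in 30 of them, among which were the epidermal and barrier genes described next, and not below it in 34, such as Moxd1. Krt90, a type II keratin, read 8.50 in OKN-HAMS, 11.52 in OK+9MS, 7.22 in OKMS and 11.50 in OSKM, against 7.04 in lacZ. At 8.06-fold it was the gene with the largest difference in the pair, and the Klf4S and Klf4L arrays read higher still, at 13.07 and 12.97. Srgn, the proteoglycan serglycin of secretory granules, read 9.38, 11.65, 6.60 and 12.12, against 7.43 in lacZ. Cers3, the ceramide synthase of the epidermal lipid barrier, read 7.18, 9.06, 5.98 and 9.02, against 5.80 in lacZ. Srgn and Cers3 were low in OKMS and lacZ, and OKN-HAMS lay between those arrays and OK+9MS. The other 4 cassettes read low too, with at most 8.55 for Krt90, 7.70 for Srgn and 6.345 for Cers3, each in MKOS, which has the long Klf4. MKOS was thus about level with OKN-HAMS in Krt90 and below it in Srgn and Cers3.

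Asprv1, an aspartic protease that processes filaggrin, read 7.10, 8.91, 6.49 and 9.49 (6.37 in lacZ). Gabrp, a subunit of the GABA-A receptor found in epithelia, read 6.78, 9.01, 6.22 and 9.45 (6.28 in lacZ), so that OKN-HAMS was close to the low arrays. Ly6g, a GPI-anchored surface protein best known from neutrophils, read 6.85, 8.54, 5.62 and 8.60 (6.72 in lacZ). In these genes the level of OKN-HAMS was never the lowest of the 4, since OKMS read lower still. In the other 4 cassettes the highest readings, all in MKOS, were 6.90 for Asprv1, 6.79 for Gabrp and 6.345 for Ly6g.

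Of the epidermal lists, the cornified envelope genes lay lower in OKN-HAMS and the stratified keratins were near the median of all genes. Of all 19938 genes, 11140 had a difference OKN-HAMS minus OK+9MS below 0 and 8357 above. These are the background for the counts by sign in each list. Of 27 measured genes of the cornified envelope, the crosslinked protein shell of dead skin cells, 21 lay below 0 and 6 above, with a median difference of -0.36 against -0.02 over all genes. At 2-fold 2 were lower and 0 higher: Sprr3 (8.47 in OKN-HAMS, 9.62 in OK+9MS, 6.67 in OKMS, 9.49 in OSKM) and Sprr1a (10.17, 11.27, 7.94 and 12.20), both small proline-rich envelope precursors. Among 12 stratified keratins the median was -0.07, and the stress keratin Krt16 alone passed 2-fold, with 10.19, 11.26, 5.95 and 10.78. Krt6a, its partner in wounded epidermis, read 10.21, 10.56, 6.24 and 9.66. In both keratins OKN-HAMS lay far nearer to OK+9MS than to OKMS.

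The genes that separate OSKM from OKMS place both arrays of the pair nearer to OSKM. Of the 551 genes (2.76%) that read 2-fold or more higher in OSKM than in OKMS, OK+9MS was above OKMS by a median of 1.21 and OKN-HAMS by a median of 1.11, beside the 1.42 of OSKM. OK+9MS lay nearer to OSKM than to OKMS in 484 of these genes (87.8%) and OKN-HAMS in 404 (73.3%). Within this set OKN-HAMS was 2-fold lower than OK+9MS in 37 genes (6.72%, against 0.767% of all genes) and 2-fold higher in 11 (2.00%, against 0.251%). In the 209 genes (1.05%) lower in OSKM than in OKMS, the medians were -1.18 for OK+9MS and -0.94 for OKN-HAMS, with 194 and 152 genes nearer to OSKM. The 3 differences share the OKMS array, and this set was chosen after the data were seen. The share of all genes nearer to OSKM than to OKMS was not computed for either array of the pair.

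Growth factor, matrix and patterning genes were among those that read lower in OKN-HAMS than on all 3 other arrays. Fgf2, a mitogen of fibroblasts, read 7.85 in OKN-HAMS, 10.00 in OK+9MS, 9.37 in OKMS and 9.27 in OSKM, against 10.41 in lacZ. Penk, the enkephalin precursor expressed by embryonic fibroblasts, read 10.87, 12.92, 12.52 and 12.80, against 12.72 in lacZ. Hoxd13, a homeobox gene of the distal limb and genital region, read 7.17, 9.54, 8.94 and 9.15, against 9.83 in lacZ. OKN-HAMS was the lowest of the 4 in each, apart from the other 3, but EB-C5 and WTSI read 7.11 and 7.19 for Hoxd13 and 11.91 and 10.77 for Penk.

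Fhl1, a LIM-domain protein of muscle, read 9.18, 11.18, 11.40 and 10.43 (12.03 in lacZ), and here EB-C5 and WTSI stayed high, so that its lowest reading in the other 4 cassettes was 10.51. Smoc2, a matricellular calcium-binding protein, read 7.58, 9.34, 8.78 and 9.13, with 8.56 as its lowest reading in those 4. Pdgfd, a ligand of the PDGF receptor beta, read 6.60, 8.42, 8.11 and 8.49, with 7.09 in EB-C5 and 7.18 in WTSI. Rspo2, an agonist of Wnt signalling, read 6.91, 8.60, 8.15 and 7.91, with 7.70 and 7.88 in EB-C5 and WTSI. Moxd1 (7.03, 9.55, 7.59 and 9.11), Mustn1 (8.49, 10.42, 9.25 and 10.35) and the neurotrophic factor Ndnf (8.56, 10.33, 8.73 and 9.66) were low in OKN-HAMS and, less so, in OKMS, and Moxd1 was as low in EB-C5 and WTSI, at 7.23 and 7.21. The kinase Nuak1 (9.98, 11.75, 10.97 and 11.88) and the cytokine Cxcl15 (6.17, 7.97, 7.46 and 8.19) completed the 20 lower genes with Mfap5 and Cnn1. Cxcl15 was low in lacZ as well, at 5.21.

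**Figure D4:**
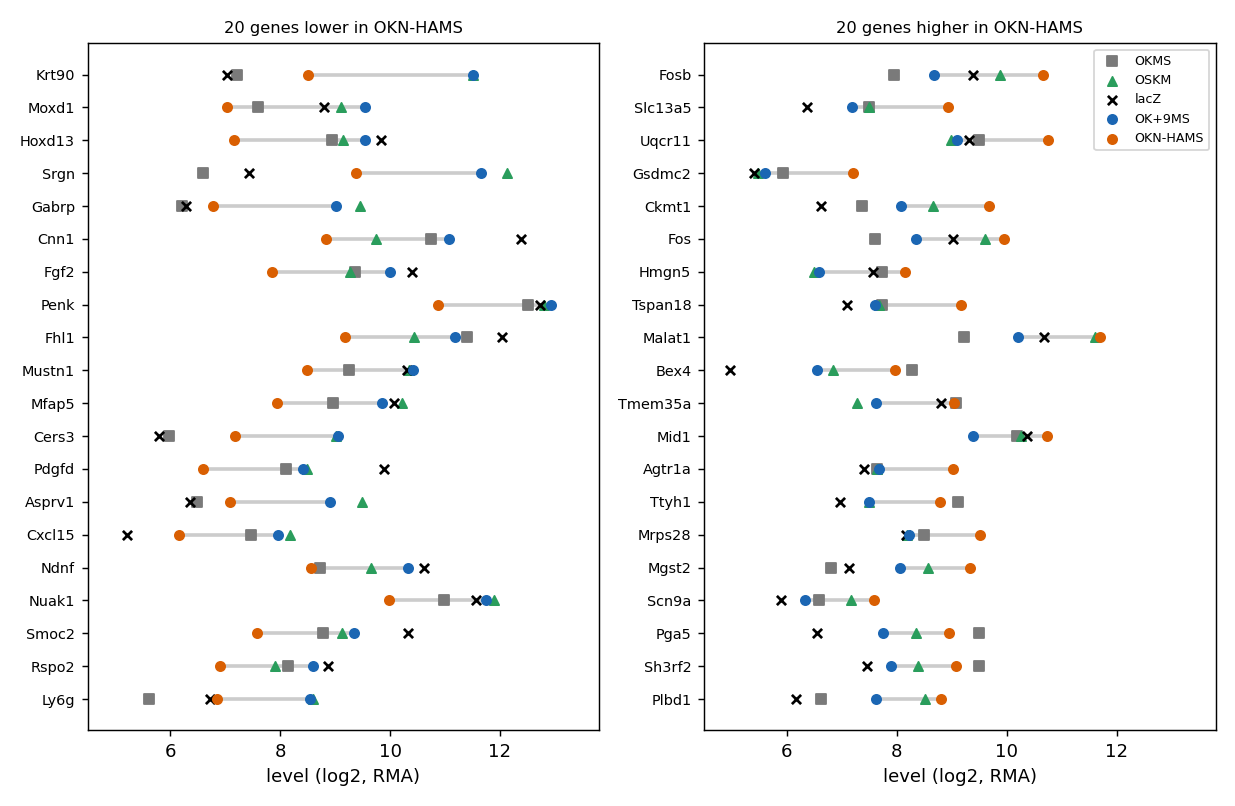
Level (log2) of the 20 genes that differed most each way on OKN-HAMS, OK+9MS, OKMS, OSKM and lacZ, with a grey bar that joins the compared pair. Krt90, Srgn and Cers3 have OKMS on the side of OKN-HAMS, and Fgf2, Penk and Fhl1 have OKN-HAMS by itself on the left.

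Fibroblast and matrix genes as a list lay lower in OKN-HAMS. Of 27 measured genes, 24 lay below 0, the median difference was -0.43 against -0.02 over all genes, and 3 were lower at 2-fold with 0 higher. Mfap5, a microfibril protein, read 7.94 in OKN-HAMS, 9.86 in OK+9MS, 8.97 in OKMS and 10.21 in OSKM, with 7.93 in EB-C5 and 8.26 in WTSI. Postn, the matricellular periostin, read 10.81, 12.34, 11.98 and 12.51, with 11.27 and 10.83 in EB-C5 and WTSI. Lox, which crosslinks collagen, read 11.12, 12.36, 11.79 and 12.01. All 3 were lowest in OKN-HAMS among the 4 arrays, while the proteoglycan Dcn (11.62, 12.58, 10.07 and 12.61) was lowest in OKMS. The list mean was 10.21 in OKN-HAMS and 10.33 in OKMS, against 10.73 in OK+9MS and 10.83 in OSKM, with 10.50 in EB-C5 and 10.46 in WTSI. Lum and Pdgfra went the other way, at 0.48 and 0.38 above OK+9MS.

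The contractile genes had the lowest median of the 27 lists. Of 17 smooth muscle and TGF-beta genes, 15 lay below 0, with a median of -0.59, 4 lower at 2-fold and 9 lower at 1.5-fold. Cnn1, the actin-binding calponin, read 8.85 in OKN-HAMS, 11.07 in OK+9MS, 10.75 in OKMS and 9.75 in OSKM, against 12.38 in lacZ. Myl9, a myosin regulatory light chain, read 10.01, 11.62, 11.34 and 10.71, and Tagln, transgelin, 9.60, 11.05, 10.82 and 10.30. Ccn2, a secreted TGF-beta target, read 10.90, 12.02, 11.77 and 11.48. In each of the 4 genes the order was the same: OKN-HAMS lowest, then OSKM, OKMS and OK+9MS, with lacZ the highest. OSKM thus lay near OKN-HAMS for Cnn1, Myl9 and Tagln, although OSKM lay near OK+9MS in most of the lower genes. EB-C5 read as low as OKN-HAMS, at 8.84 for Cnn1, 10.02 for Myl9 and 9.42 for Tagln, and WTSI did not, at 10.76, 11.14 and 10.74. What EB-C5 and OKN-HAMS share was not tested.

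All 9 measured regulators of epithelial-mesenchymal transition and all 13 matrix metalloproteinases and inhibitors lay below 0 in the pair, as did 11140 of all 19938 genes. The regulators repress epithelial genes, and their median difference was -0.46, with 4 lower at 1.5-fold and 0 at 2-fold. Zeb1 read 9.52 in OKN-HAMS, 10.42 in OK+9MS, 9.99 in OKMS and 10.39 in OSKM, and Twist2 read 8.97, 9.85, 9.57 and 9.98, against 11.07 and 11.44 in lacZ. The proteinase list had a median of -0.41, with Mmp3, stromelysin, at 7.44, 8.91, 8.17 and 7.96. Its mean was 9.23 in OKN-HAMS and 9.26 in OKMS, against 9.74 in OK+9MS and 9.59 in OSKM, so that OKN-HAMS was level with OKMS. Interferon-response genes had a median of -0.50 over 19 genes, of which 16 lay below 0 and 2 passed 2-fold. These were the chemokine Cxcl10 (10.16, 11.44, 11.42 and 11.33, against 13.35 in lacZ) and the deISGylase Usp18 (8.51, 9.72, 9.17 and 9.02, against 10.67 in lacZ). The mean of the interferon list was 8.76 in OKN-HAMS, 9.18 in OK+9MS, 9.01 in OKMS and 9.00 in OSKM. EB-C5 and WTSI were near OKN-HAMS, at 8.89 and 8.81.

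**Figure D5:**
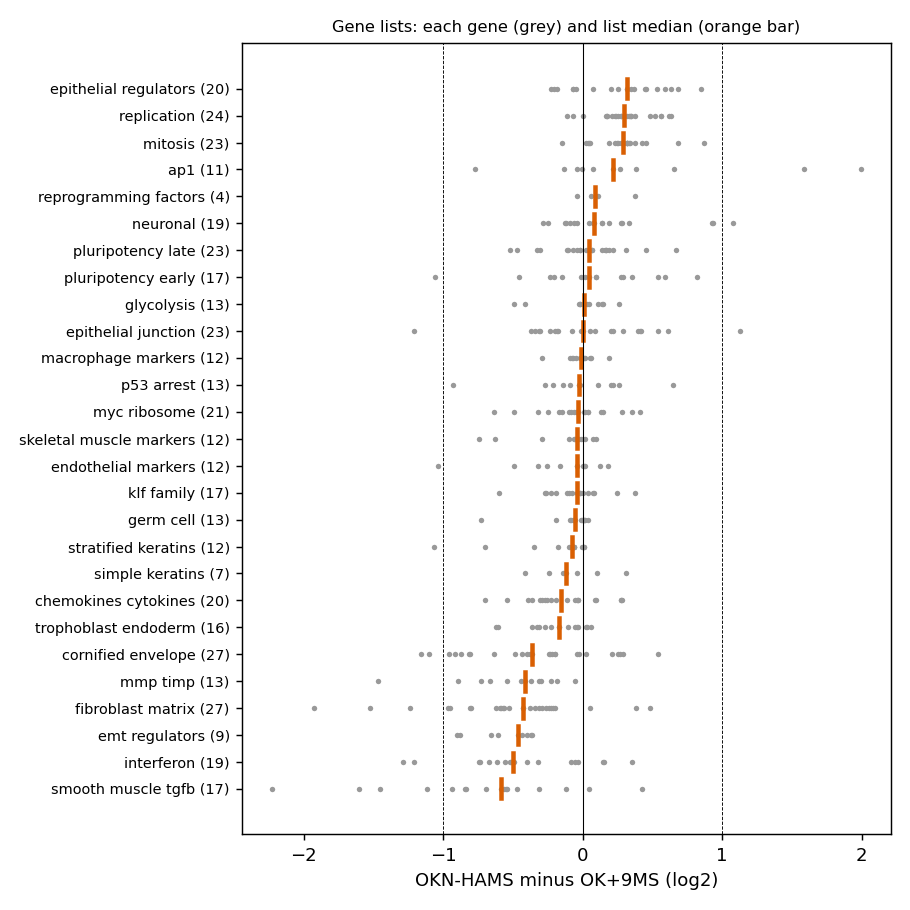
Difference OKN-HAMS minus OK+9MS (log2) for each gene of the 27 lists (grey points, number of measured genes in brackets) and the list median (orange bar), with dashed lines at 2-fold. Medians ran from -0.59 for smooth muscle and TGF-beta genes to 0.32 for epithelial regulators.

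Epithelial genes as such did not follow the mesenchymal ones. The junction list had a median of 0.00 over 23 genes, with 1 gene higher and 1 lower at 2-fold, and means of 9.51 in OKN-HAMS, 9.47 in OK+9MS, 9.48 in OSKM, 8.40 in OKMS and 7.44 in lacZ. The higher gene was Tjp3, a tight junction scaffold (8.96, 7.83, 7.63 and 8.45), and the lower one Cdh3, P-cadherin (7.88, 9.09, 9.23 and 9.37), which read highest in lacZ at 10.20. Epcam, an epithelial adhesion molecule, read 10.53, 10.00, 9.26 and 10.37, against 6.14 in lacZ. The 20 epithelial regulators had a median of 0.32, with 14 above 0 and 4 at 1.5-fold: the splicing regulator Esrp1 (10.62, 9.77, 9.37 and 10.18), the transcription factors Zfp750 (9.75, 9.07, 9.68 and 9.33) and Grhl3 (9.78, 9.19, 8.39 and 9.21), and the protease inhibitor Spint2 (11.01, 10.37, 10.22 and 10.57). Simple keratins were near level, with a median of -0.12 over 7 genes and Krt8 at 13.39 and 13.43.

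Apart from small RNAs, the immediate early gene Fosb had the largest difference among the 50 higher genes. Fosb, an AP-1 subunit, read 10.67 in OKN-HAMS, 8.67 in OK+9MS, 7.94 in OKMS and 9.87 in OSKM, against 9.40 in lacZ. Fos, its relative, read 9.94, 8.36, 7.60 and 9.61, against 9.03 in lacZ. OKN-HAMS and OSKM were high and OK+9MS and OKMS low in both, and WTSI read higher than all 4 in both, at 10.90 and 10.28. Over 11 AP-1 genes the median was 0.22, with 7 above 0 (8357 of all 19938 genes), and the subunit Fosl1 went the other way (9.69, 10.46, 9.58 and 9.56). The nuclear RNA Malat1 had a like order, with 11.69, 10.20, 9.23 and 11.60, and between 11.23 and 11.86 in the other 4 cassettes, so that OK+9MS and OKMS were the low arrays.

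Small RNAs made up many of the higher genes, and 2 small mitochondrial proteins were among them. Of the 50 higher genes 13 (26%) were small RNAs, mostly small nucleolar RNAs, against 1.84% of all genes, and their mean was 9.33 in OKN-HAMS, 7.85 in OK+9MS, 8.31 in OKMS and 8.26 in OSKM, with 9.12 in WTSI. Uqcr11, a small subunit of respiratory complex III, read 10.76, 9.10, 9.49 and 8.98, and Mrps28, a mitochondrial ribosomal protein, 9.52, 8.24, 8.50 and 8.20. EB-C5 and WTSI read 10.41 and 10.95 for Uqcr11 and 9.06 and 9.40 for Mrps28. The 77 oxidative phosphorylation subunits had a median of 0.25, with 65 above 0, and the 77 mitochondrial ribosomal genes a median of 0.22. These classes were formed after the data were seen, and their part in the result was not tested.

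A group of higher genes stood out in OKN-HAMS by itself. Slc13a5, the citrate transporter, read 8.94 in OKN-HAMS, 7.18 in OK+9MS, 7.50 in OKMS and 7.50 in OSKM, with at most 7.60 in the other 4 cassettes. Tspan18, a tetraspanin, read 9.18, 7.61, 7.74 and 7.67, and Agtr1a, an angiotensin II receptor, 9.02, 7.68, 7.64 and 7.65, with at most 7.50 and 7.73 in those 4. Gsdmc2, a gasdermin of epithelia, read 7.20, 5.60, 5.94 and 5.49, and since 5.60 is under 6 it cannot be told from background and its difference of 1.60 is a lower bound. Ckmt1, the ubiquitous mitochondrial creatine kinase of epithelia, read 9.67, 8.09, 7.38 and 8.67, and the glutathione transferase family member Mgst2 9.34, 8.06, 6.81 and 8.57. In these last 2 genes OKN-HAMS did not stand by itself, since OSKM came second, and OKMS was the lowest of the 4. Over the 50 higher genes OKN-HAMS was the highest of the 4 arrays in 40 (80%, against 22.7% of all genes) and the highest of the 8 cassettes in 27 (54%, against 9.44%), in a set chosen for high readings there.

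In a further group OKMS lay with OKN-HAMS and OK+9MS with OSKM. Bex4 (7.97 in OKN-HAMS, 6.55 in OK+9MS, 8.27 in OKMS and 6.84 in OSKM), the nucleosome-binding Hmgn5 (8.16, 6.58, 7.74 and 6.49), the chloride channel Ttyh1 (8.79, 7.50, 9.12 and 7.49) and Tmem35a (9.04, 7.63, 9.08 and 7.29) were of this kind. Pga5, a pepsinogen (8.96, 7.75, 9.49 and 8.35), and Sh3rf2 (9.09, 7.89, 9.49 and 8.38) were highest of the 4 in OKMS, with OSKM between the arrays of the pair. EB-C5 read above OKMS in both, at 9.54 and 10.52. EB-C5 and WTSI were both nearer to OKN-HAMS than to OK+9MS in Hmgn5, Ttyh1, Tmem35a, Pga5 and Sh3rf2. For Bex4 only EB-C5 was, at 7.67 against 6.885 in WTSI. Mid1, a microtubule-associated ubiquitin ligase, was instead low in OK+9MS alone (10.73, 9.38, 10.18 and 10.26). Plbd1 (8.82, 7.63, 6.63 and 8.51) and the sodium channel Scn9a (7.60, 6.34, 6.60 and 7.18) had OSKM on the side of OKN-HAMS. The 2 probe sets of Scn9a differed, at 1.26 and 0.66.

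In a few genes OK+9MS lay outside the range of the other 3 arrays. Rtl1, an imprinted retrotransposon-derived gene, read 8.87 in OKN-HAMS, 10.01 in OK+9MS, 8.32 in OKMS and 7.55 in OSKM, and at most 7.22 in the other 4 cassettes. Idi2, an isopentenyl diphosphate isomerase, read 5.90, 7.39, 5.54 and 5.66, a difference with a lower bound of 1.49 in size, and Sh2d1b1, a signalling adaptor of lymphocytes, 6.10, 7.53, 5.46 and 6.41. Htr2a (9.39, 10.29, 9.12 and 9.21) and the interferon-inducible GTPase Iigp1 (7.29, 8.18, 6.64 and 6.87) were above the other 3 by less. Below the other 3 were Nanog (9.87, 9.20, 11.05 and 9.93), a pluripotency factor, Slain1 (8.64, 7.56, 9.34 and 8.29), Sv2b (7.17, 6.38, 8.90 and 7.15) and the Fc receptor Fcgr2b, which was 0.91 lower in OK+9MS than in OKN-HAMS. In Nanog and Sv2b the high OKMS array stood farther from the rest than OK+9MS did. Akr1c14, a hydroxysteroid dehydrogenase, was set apart by OKN-HAMS instead, at 5.57 against 7.09, 7.02 and 7.15, which gives a lower bound of 1.52.

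Pluripotency lists were close in the pair, while mitosis and replication genes lay somewhat higher in OKN-HAMS. Of 17 early pluripotency genes Utf1, a chromatin factor of embryonic stem cells, was the one at 2-fold, with 8.55 in OKN-HAMS, 9.61 in OK+9MS, 10.89 in OKMS and 7.55 in OSKM, and the list median was 0.05. Alpl, the alkaline phosphatase that marks reprogramming cells, read 10.39, 9.57, 11.29 and 8.43. OKMS was the highest and OSKM the lowest of the 4 in both genes. The 23 late genes had a median of 0.05 with 0 at 2-fold. Mitosis genes had a median of 0.29, with 22 of 23 above 0, and replication genes 0.30, with 21 of 24 above 0. Over all 19938 genes the median was -0.02, with 8357 above 0. Both lists had 0 genes at 2-fold, and the survivin gene Birc5 came nearest (9.53, 8.66, 9.38 and 8.54). For both lists the order of the means was OKMS, OKN-HAMS and then OK+9MS and OSKM close together, with replication at 10.23, 9.94, 9.63 and 9.67. The cell cycle inhibitor Cdkn2b read 8.90, 9.83, 8.95 and 9.34, and Cdkn2a 9.29, 8.64, 8.96 and 8.26.

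Of the remaining lists, MYC and ribosome genes had a median of -0.03, KLF family genes of -0.04, glycolysis genes of 0.01 and p53 and arrest genes of -0.02, all with 0 genes at 2-fold. Within the KLF family the largest difference was that of Klf9 (9.61, 10.21, 10.00 and 10.36). Neuronal genes had a median of 0.08 with Elavl3, an RNA-binding protein of neurons, higher at 2-fold (8.36, 7.28, 7.51 and 7.48). Tubb3 (11.00, 10.08, 8.69 and 9.53) followed. Chemokines and cytokines had a median of -0.15, trophoblast and endoderm genes of -0.17, germ cell genes of -0.06, skeletal muscle markers of -0.04, endothelial markers of -0.04 and macrophage markers of -0.01. Of these last 6 lists only the endothelial Erg reached 2-fold (6.61, 7.64, 7.04 and 7.34). The chemokine and cytokine list does not hold Cxcl15, Cxcl10 and Cxcl9, which were lower in OKN-HAMS at 2-fold (-1.79, -1.29 and -1.09).

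Promoters of 4 of the genes above are shown because Klf4 is the protein that differs between the constructs and each holds a match to a KLF-type element; they were picked after values and matches were seen. The sequences are the 250 bases before the RefSeq start on build GRCm38.p6, read 5′ to 3′ on the gene's strand, with capitals for matches to GGGNGTGG on either strand and, in Myl9, also for a CArG box, the element bound by serum response factor in contractile genes.
Cnn1 (chr9:22099003-22099252, strand +): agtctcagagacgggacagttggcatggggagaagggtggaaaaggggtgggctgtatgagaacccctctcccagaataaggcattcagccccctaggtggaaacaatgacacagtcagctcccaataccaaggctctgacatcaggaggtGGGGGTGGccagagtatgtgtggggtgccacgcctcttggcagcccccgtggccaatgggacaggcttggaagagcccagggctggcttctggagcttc
Myl9 (chr2:156775214-156775463, strand +): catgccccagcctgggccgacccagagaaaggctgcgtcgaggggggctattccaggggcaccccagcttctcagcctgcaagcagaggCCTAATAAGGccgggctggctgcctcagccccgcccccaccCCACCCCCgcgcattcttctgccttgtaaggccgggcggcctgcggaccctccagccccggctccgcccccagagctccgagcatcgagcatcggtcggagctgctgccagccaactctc
Fgf2 (chr3:37348403-37348652, strand +): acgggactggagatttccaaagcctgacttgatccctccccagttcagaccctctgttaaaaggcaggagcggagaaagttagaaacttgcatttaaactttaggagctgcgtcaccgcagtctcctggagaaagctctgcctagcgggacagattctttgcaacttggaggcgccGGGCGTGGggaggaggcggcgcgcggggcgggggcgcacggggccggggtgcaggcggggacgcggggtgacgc
Ckmt1 (chr2:121357526-121357775, strand +): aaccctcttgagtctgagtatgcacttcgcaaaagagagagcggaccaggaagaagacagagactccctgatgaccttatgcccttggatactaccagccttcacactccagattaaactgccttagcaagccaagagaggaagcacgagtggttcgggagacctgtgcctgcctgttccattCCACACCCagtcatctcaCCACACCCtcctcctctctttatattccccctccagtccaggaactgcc
The match begins 99 bases before the start in Cnn1, 74 in Fgf2, 120 in Myl9, and 67 and 49 in Ckmt1, and the CArG box of Myl9 begins 161 bases before it. Ckmt1 has 2 listed promoters, of which the first is shown. The motif GGGNGTGG was found in 28 of 116 lower genes with a promoter sequence (24.1%), in 6 of 29 higher genes (20.7%) and in 21.2% of the genes on the array with such a sequence, so its share was near the background. The AP-1 motif TGANTCA was found in 15 of the 116 (12.9%), 1 of the 29 (3.45%) and 7.12% of genes on the array, and the CArG box in 3, 0 and 1.45%. A match is a run of letters and not a binding site.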

How the data were processed

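Single arrays were analysed for 11 constructs. Per the submitters' processing notes the authors made the deposited log2 expression values with RMA (background correction, normalization between arrays, summarization) on an Affymetrix mouse gene array, with no version named in the sources. RMA values can understate large differences, and levels under 6 cannot be told from background. Of 28856 probe sets, 21789 had 1 gene symbol, 1621 several and 5446 none; only the first were used, with the brightest probe set for the 999 genes that had more than 1, which gave 19938 genes. Differences, counts at 2-fold, SDs and list medians were computed with pandas 2.3.3 and numpy 2.4.6 and checked on simulated data. The number of arrays limits the precision, and no test was possible with 1 array a side. Genes were named by a rule: the 20 largest differences each way where the brighter array reads 7 or more, the 5 each way in which OKN-HAMS or OK+9MS lies farthest outside the other 3 of the 4 arrays, up to 4 genes per list of 27 lists (444 of 468 entries measured), and the factors. Predicted genes, small RNAs and receptor families were not named. The members and lists were chosen with earlier results of these data known. Sequences are from RefSeq.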

Additional observations from a re-analysis of the deposited data

How the results depend on the processing

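Centring, quantile normalization, loess of the pair, filters on dim genes (mean of at least 6 or 7) and the mean of all probe sets left 45 to 63 higher and 137 to 153 lower genes. The stricter limit of 4-fold left 2 higher and 9 lower genes and the looser one of 1.5-fold gave 360 and 747, by construction. At 4-fold 0% of the 2 higher genes had OKMS, and 0% had OSKM, nearer to OKN-HAMS, and at 1.5-fold OKMS was nearer in 42.2%, against 24% at 2-fold. Of 162 list medians under alternatives 159 moved by less than 0.126, the SD between the Klf4 arrays. The others came with the filter at 7, which left few genes: -0.45 for 2 endothelial, -0.36 for 4 skeletal muscle and -0.35 for 2 germ cell genes. Of 604 values of named genes under alternatives, 603 moved by less than that SD. Myc, at -0.04 as deposited, changed sign in 2 of them, to 0.01 with loess and 0.02 with quantile normalization, and 6 list medians of at most 0.04 in size (endothelial, macrophage and skeletal muscle markers, KLF family, MYC and ribosome, p53 and arrest) changed sign under some alternative. Scn9a was 0.96 with the mean of its probe sets. Centring shifted the differences of all genes alike, and the mean of all probe sets left genes with 1 probe set unchanged. Under these 2 alternatives most values of named genes could therefore not move far, by construction. Without the small RNAs, an alternative added after the data were seen, 37 higher genes remained. No paired analysis was possible because each construct has 1 array and the labels give no replicate numbers. Levels near background, under 6 on 1 array of the pair for 5 lower and 2 higher genes, limit the size of those differences.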

Other observations

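Some posterior Hox genes, which mark distal limb and genital identity, were low on the same arrays as Hoxd13. Of 37 measured Hox genes, 4 were 2-fold lower in OKN-HAMS than in OK+9MS and 0 higher, against 0.767% and 0.251% of all genes. The median over all 37 was 0.00. Hoxd11 read 7.17 in OKN-HAMS, 8.50 in OK+9MS, 8.22 in OKMS and 8.32 in OSKM, and 7.23 in EB-C5 and 7.21 in WTSI. Hoxd12 read 6.67, 7.67, 7.26 and 7.54 on the first 4, with 6.56 in EB-C5 and 6.44 in WTSI. Hoxa13 read 6.82, 7.95, 7.43 and 7.87, with 6.77 in EB-C5 and 6.89 in WTSI. The lacZ array read 9.39, 8.45 and 8.49 for the 3 genes. OKN-HAMS, EB-C5 and WTSI were thus the lowest of the cassettes in Hoxd11, Hoxd12 and Hoxa13, which were chosen after their values were seen. Hoxd10 and Hoxa11 were lower in OKN-HAMS by less than 2-fold, at -0.81 and -0.69, and Hoxc4 and Hoxc6 were higher, at 0.72 and 0.49. Others differed: Hoxc10 read 7.64 in OKN-HAMS and 7.33 in OK+9MS, and Hoxb13 6.67 and 6.66. Hoxb13 varied little over the whole series, from 6.47 in OSKM to 6.91 in STEMCCA. In addition, the source of the fibroblasts of each array is not given in the labels used here.

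Of the genes lower in OKN-HAMS, 18 had both EB-C5 and WTSI nearer to OK+9MS. Besides Fhl1, Smoc2, Akr1c14 and Lox they include Mef2c, a transcription factor of muscle (7.16 in OKN-HAMS, 8.23 in OK+9MS, 8.10 in OKMS and 7.91 in OSKM), the ephrin receptor Epha3 (6.58, 7.62, 7.35 and 7.55) and the pyruvate dehydrogenase kinase Pdk4 (7.35, 8.42, 8.12 and 7.68). Among the 20 such genes higher in OKN-HAMS were the antioxidant Gpx2 (10.06, 8.94, 7.32 and 9.34), Prom2 (8.59, 7.54, 6.77 and 7.53), a prominin of epithelial membrane protrusions, and the inflammasome adaptor Pycard (8.85, 7.80, 6.97 and 8.83).

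Probe sets outside the gene analysis held differences too. Of 5446 probe sets with no symbol, 22 were higher (0.404%) and 12 lower (0.220%) in OKN-HAMS by 2-fold or more, and of 1621 with several symbols 15 were higher (0.925%) and 6 lower (0.370%). The higher ones were the more numerous here, opposite to the genes with 1 symbol, with 50 higher and 153 lower.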
